A study of Homo sapiens with 6 samples.

Results

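Accessible intronic elements far from promoters were described in GM12878, a human B-lymphoblastoid cell line. The peaks of 6 ATAC-seq libraries were merged into 56447 regions, and 15052 of these were autosomal, lay inside the body of a protein-coding gene, touched no annotated exon of any gene and were more than 5 kb from every protein-coding transcript start (GENCODE version 44 on hg19, the same build as GRCh37). ATAC-seq marks open chromatin by the insertion of sequencing adapters with the Tn5 transposase. All cells were fixed with 1% paraformaldehyde and reverse crosslinked at 65 °C, and 3 protocols of reverse crosslinking with 2 replicates each were compared. The labels also give lysis with 0.05% Igepal CA-630 and a quench with 40 mM EDTA for every library, but the methods give these steps for bulk Pi-ATAC and a standard ATAC-seq transposition for the SDS protocol. A difference in lysis or quenching therefore cannot be told apart from the old against the new buffer. The old buffer held SDS, and its DNA was purified before PCR. The new buffer held no SDS, and its DNA was either purified or amplified without purification, which is the bulk form of the Pi-ATAC workflow. The labels give no difference in genotype or treatment between the groups. Nothing says that the replicates came from separate cultures, so p-values measure only the spread between these libraries. An element was called in a library when at least 1 bp of it lay in a peak of that library.

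Introns of human genes hold many enhancers, short stretches of DNA that bind transcription factors and act on promoters from a distance. An enhancer may act on the gene that hosts it or on another gene, so the host gene is a position here and not a target. In B cells and their immortalized lines, enhancers are known to be bound by factors of the ETS, RUNX, AP-1, IRF, NF-kB and EBF families.

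The sequences of 7 elements are shown first. They are the 200 bases around the summit in the hg19 forward strand, with matches to the 12 core motifs described below in capitals on either strand. The strongest element, of a gene or of all, is the one with the highest mean −log10 q over the 6 libraries among elements called in all 6. PDE4B held the strongest that did not resemble ribosomal DNA, and its window matched AP-1 at 2 places and IRF. ATXN1, LSAMP, PDE4D and AUTS2 are among the host genes with the most elements, and each window is that of their strongest element called in all 6 libraries. KLRC4-KLRK1 held the leading element called with both old-buffer libraries and neither purified new-buffer library, ranked by the −log10 q of the weaker old-buffer library. HFM1 held the strongest element of all, which resembled ribosomal DNA.
PDE4B, chr1:66277779-66277978: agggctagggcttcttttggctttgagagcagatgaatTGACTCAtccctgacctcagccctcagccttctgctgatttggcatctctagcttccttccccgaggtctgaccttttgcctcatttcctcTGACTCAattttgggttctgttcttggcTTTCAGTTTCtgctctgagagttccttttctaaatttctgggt
ATXN1, chr6:16636596-16636795: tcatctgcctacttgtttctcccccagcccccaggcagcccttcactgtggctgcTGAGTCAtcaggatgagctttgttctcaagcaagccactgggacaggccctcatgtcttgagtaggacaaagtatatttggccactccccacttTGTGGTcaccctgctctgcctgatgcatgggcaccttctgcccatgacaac
LSAMP, chr3:115719256-115719455: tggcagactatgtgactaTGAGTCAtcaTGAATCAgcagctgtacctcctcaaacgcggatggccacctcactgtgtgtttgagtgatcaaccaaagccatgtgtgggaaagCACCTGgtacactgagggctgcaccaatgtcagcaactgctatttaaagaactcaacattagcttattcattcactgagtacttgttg
PDE4D, chr5:59558831-59559030: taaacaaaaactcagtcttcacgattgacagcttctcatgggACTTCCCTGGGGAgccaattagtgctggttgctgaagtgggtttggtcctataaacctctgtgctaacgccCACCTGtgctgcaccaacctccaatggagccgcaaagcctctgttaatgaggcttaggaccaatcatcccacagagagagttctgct
AUTS2, chr7:69269175-69269374: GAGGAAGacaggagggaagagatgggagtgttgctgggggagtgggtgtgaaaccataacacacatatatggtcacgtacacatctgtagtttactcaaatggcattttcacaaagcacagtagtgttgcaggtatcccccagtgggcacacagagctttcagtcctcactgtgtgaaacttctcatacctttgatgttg
KLRC4-KLRK1, chr12:10548015-10548214: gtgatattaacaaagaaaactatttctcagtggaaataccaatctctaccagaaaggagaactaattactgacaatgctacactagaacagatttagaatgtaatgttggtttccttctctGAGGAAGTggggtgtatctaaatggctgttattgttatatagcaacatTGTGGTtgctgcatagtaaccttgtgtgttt
HFM1, chr1:91852854-91853053: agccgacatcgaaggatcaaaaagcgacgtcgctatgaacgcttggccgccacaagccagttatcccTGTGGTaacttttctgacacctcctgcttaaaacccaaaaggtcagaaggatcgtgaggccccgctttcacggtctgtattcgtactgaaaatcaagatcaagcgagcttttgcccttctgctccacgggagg

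The libraries listed 30136 to 38023 peaks. Summit heights are given as reads at the summit, solved from the fold enrichment and p value that MACS2 reports for each peak, and a listed peak had at least 8 reads. Total reads are not in the lists, and the lowest local background, which scales with depth, differed by 1.24-fold between the deepest and the shallowest library. It was 1.74 and 1.52 reads with the old buffer, 1.58 and 1.51 with the purified and 1.76 and 1.86 with the unpurified new buffer. Summit reads were not adjusted for it. Among promoters of 8 B-cell markers, 2 had a region in all 6 libraries (MS4A1 and CR2), and 1, BLK, had none. The promoters of CD79B and PAX5 were each called in 1 library. Of 6 T-cell markers, CD8A and BCL11B were called in all 6 and 4 in none. Of 6 myeloid and erythroid markers 5 had no region, and of 4 epithelial and liver markers 4 had none.

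Intronic elements were mostly either in few libraries or in all of them. Of the 15052 elements, 3897 (25.9%) were called in all 6 libraries, against 35.5% of all 56447 regions, and 4910 (32.6%) were called in 1 library only, against 27.4% of all regions. The elements called in 2, 3, 4 and 5 libraries numbered 2087, 1495, 1278 and 1385. Regions within 1 kb of a protein-coding start, called promoter regions here, had the opposite shape, with 64.2% of 12484 in all 6 libraries and 12.4% in 1. Intergenic regions over 5 kb from starts were close to the intronic elements, with 26.3% of 13792 in all 6 and 32.7% in 1. Height and recurrence moved together. The median summit reads were 13 in elements called by 1 library, 16 in those called by 4 and 25.5 in those called by all 6. The median width went from 236 bp to 653 bp over the same range, and the merging of peaks from more libraries also widens an element. Over all elements the median of the summit reads was 16, the 95th percentile was 37 and the 99th was 55.5.

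**Figure D1:**
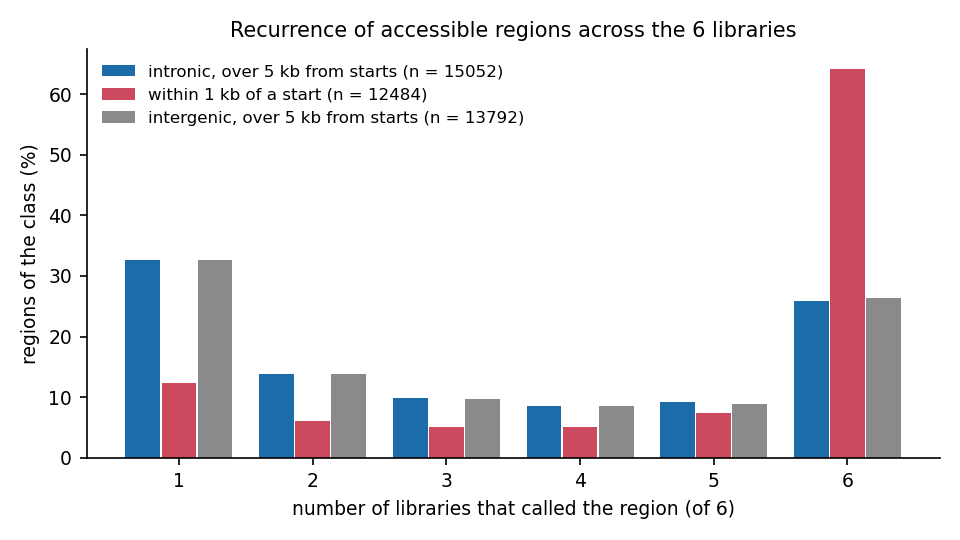
Percent of the regions of each class (y axis) by the number of libraries that called them (x axis), for intronic elements, promoter regions and intergenic distal regions. Intronic elements stand highest at 1 library (32.6%) and at 6 libraries (25.9%), almost level with intergenic regions, while 64.2% of promoter regions were called in all 6.

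The host genes with the most elements were very long genes. AUTS2, a neurodevelopmental gene whose protein is part of a Polycomb complex, held 43 elements, of which 15 were called in all 6 libraries. LSAMP, a cell adhesion molecule of the limbic system, held 37 (13 in all 6). TBC1D5, a Rab GTPase-activating protein of endosomal trafficking, held 36 (10 in all 6). PDE4D, a cyclic AMP phosphodiesterase, held 34, and only 5 of these were called in all 6 libraries and 18 in 1. MACROD2, a hydrolase that removes ADP-ribose from proteins, held 33 with 14 in all 6 and 7 in 1. The order of neighbours in this ranking rests on differences of 1 or a few elements.

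The gene model ENSG00000283563, a readthrough annotation, held 32 elements and shared 29 of them with RBMS3, an RNA-binding protein gene with 30. ATXN1, a transcriptional corepressor gene, held 32 elements in 430.2 kb of eligible intron, which is intron sequence over 5 kb from starts and outside exons. DLG2, a synaptic scaffold gene, held 29, CTNNA2, a neuronal alpha-catenin gene, 28, ANKS1B 27 and MAML2, a coactivator of Notch signalling, 26. EYS, CCSER1, CDK14, ROBO2 and ZFPM2 held 25 each, and CDKAL1, DLGAP1 and LRRC4C held 24 each. The share of elements called in all 6 libraries ranged among these 20 genes from 10.7% in CTNNA2 to 48.3% in DLG2. MAML2 (46.2%) and MACROD2 (42.4%) were near the upper end, and PDE4D (14.7%), ZFPM2 (16%) and DLGAP1 and LRRC4C (16.7% each) near the lower end.

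**Figure D2:**
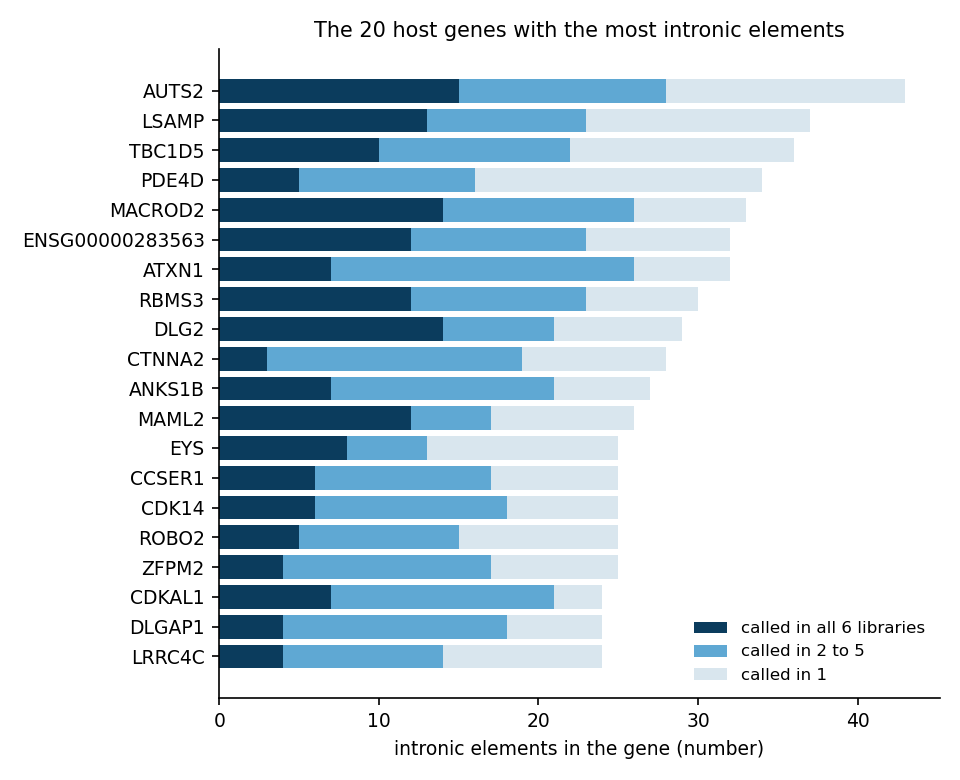
Number of intronic elements (x axis) in the 20 host genes with the most (y axis), split by the number of libraries that called them. AUTS2 holds 43 elements, and CTNNA2, with 28, has 3 in all 6 libraries where DLG2, with 29, has 14.

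The leading genes were long. Of the 20 genes, 15 were longer than 1000 kb, and their eligible intron ranged from 355.9 kb to 2034 kb against a median of 25.0 kb over the 14513 genes with any. The 20 genes held 555 elements, which is 3.69% of all. In total 4702 genes hosted an element, 1947 of them 1 only, and 51 hosted at least 20. Across the 14513 genes the rank correlation between eligible intron and elements was 0.628 (Spearman, a description over genes that share the same 6 libraries). Per 100 kb of eligible intron the 20 genes ranged from 1.30 elements in EYS to 7.44 in ATXN1, and 17 of them were above the density of all genes, which was 1.56.

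In AUTS2 the number of elements called was 25 and 30 with the old buffer, 31 and 21 with the purified new buffer and 22 and 24 with the unpurified new buffer. The 2 values without purification were lower than those of the old buffer, and the purified new buffer, with the highest and the lowest value, spanned both groups. The first intron of the gene, 299.3 kb long, held 23 elements, more than any other intron of a canonical transcript in the annotation. The 15 elements called in all 6 libraries had median summit reads of 17 to 59.5, and the 15 called in 1 library had 9 to 17 reads. The strongest element of AUTS2 (chr7:69268673-69269674, intron 1 of 18) had 52 and 58 summit reads with the old buffer, 67 and 50 with the purified and 63 and 61 with the unpurified new buffer. Its summit lay 206.0 kb from the start of the gene, and the element lay 19.9 kb from the nearest protein-coding transcript start. A second group of elements lay in the far end of the gene, between 1016 and 1131 kb from the start, where 9 elements included 3 called in all 6 libraries. The most distal of these 3, at 1129 kb, had 41 and 52, 51 and 56, and 59 and 51 summit reads in the same order of libraries.

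**Figure D3:**
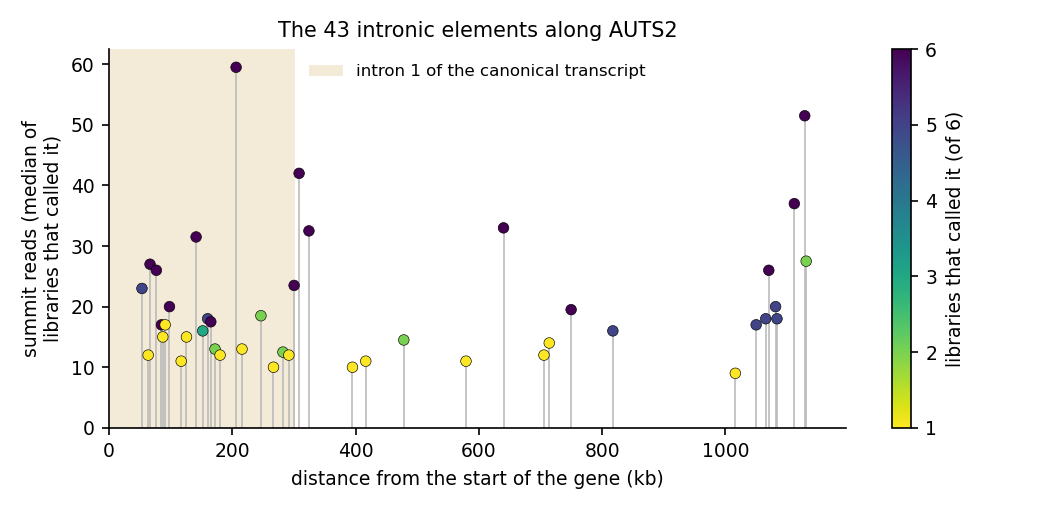
The 43 intronic elements of AUTS2 by distance of the summit from the start of the gene (x axis, kb) and by summit reads (y axis, median over the libraries that called the element), coloured by the number of libraries. The shaded band is intron 1, which holds 23 elements, and the highest point is the element at 206.0 kb with a median of 59.5 reads.

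Other host genes had elements of similar strength. The strongest element of CTNNA2 called in all 6 libraries (chr2:80752069-80752768, intron 9 of 18) had 63 and 62 summit reads with the old buffer, 74 and 57 with the purified and 74 and 58 with the unpurified new buffer. The strongest element shared by RBMS3 and ENSG00000283563 (chr3:28709148-28710136) had 46 and 38, 53 and 40, and 59 and 59 reads in the same order. In CTNNA2 the protocols overlapped, whereas in RBMS3 both unpurified libraries lay above the other 4. Depth was not adjusted for here, and the lowest local background was highest in the unpurified libraries.

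In ATXN1 the strongest element (chr6:16635948-16636901, intron 3 of 7) had 35 and 38, 36 and 37, and 43 and 39 reads. PDE4D (chr5:59558445-59559286) had 42 and 32, 45 and 31, and 40 and 39, and MACROD2 (chr20:14819141-14819851, intron 5 of 17) had 37 and 30, 35 and 31, and 34 and 27. The weakest of these leading elements was that of LSAMP (chr3:115719107-115719752, intron 3 of 6), with 38 and 24, 23 and 19, and 26 and 24 reads. In TBC1D5 (chr3:17236502-17237130, intron 19 of 22) the reads were 25 and 20 with the old buffer, 44 and 24 with the purified and 34 and 36 with the unpurified new buffer. Here the old buffer lay below 3 of the 4 new-buffer libraries, and the lower purified library lay between the old-buffer values. That element lay 10073 bp from the nearest splice site, and those of LSAMP, ATXN1 and CTNNA2 lay 19005, 21310 and 19575 bp away.

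By density other genes led. Among genes with at least 10 elements, TNFAIP8, a regulator of cell death induced by tumour necrosis factor, held 14.4 elements per 100 kb of eligible intron (14 in all, 5 of them in all 6 libraries). ST8SIA4, a polysialic acid transferase, held 14.3 (12 elements), and HIVEP2, a zinc finger protein that binds NF-kB-like sites, 12.7 (22 elements). ANKRD33B held 12.7 (10 elements, 6 of them in all 6 libraries) and BMAL1, a core factor of the circadian clock, 12.6 (10 elements). Among the 4779 genes with at least 50 kb of eligible intron the median density was 1.19, the 99th percentile was 8.38, and 1529 genes had no element. In HIVEP2 the libraries called 18 and 14 elements with the old buffer, 17 and 11 with the purified and 14 and 16 with the unpurified new buffer, so the protocols overlapped.

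Lists of genes of the B-cell lineage and a list of T-cell genes were above the density of all genes. Lists of erythroid and myeloid genes and of long neuronal genes were below it. In 24 B-cell transcription factor genes, 15 held an element, 125 elements in all and 2.79 per 100 kb summed over the list, against 1.56 over all genes. The median of the genes in the list was 2.71. Over all genes the median was 0, and over the 4779 genes with at least 50 kb of eligible intron it was 1.19. EBF1, a factor that specifies B cells, held 23 elements, ETV6, an ETS repressor, 16 and FOXP1, a forkhead factor of B-cell development, 16. Intron 6 of EBF1 alone held 18 elements, 7 of them in all 6 libraries. No promoter region of FOXP1 was in these lists, whereas those of EBF1 and ETV6 were called in all 6 libraries. In 20 genes of B-cell receptor signalling, 15 held an element, 71 in all and 2.54 per 100 kb (median 1.75). LYN, a kinase of the receptor complex, held 10, VAV3, an exchange factor, 9 and BANK1, a scaffold protein, 9.

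In 18 genes of the NF-kB and CD40 pathway, 8 held an element, 29 in all and 6.17 per 100 kb. The median was 3.06 over the 15 genes with eligible intron, and 14 of the 29 elements were those of TNFAIP8. NFKB1, a subunit of NF-kB, held 7 with 5 in all 6 libraries, and TRAF3, an inhibitor of the pathway, held 3. A list of 17 T-cell genes was also above all genes, with 34 elements in 9 genes and 3.13 per 100 kb. Summed over the list, this was higher than in the B-cell factors (2.79) and receptor signalling (2.54). The median of the T-cell list, over the 16 genes with eligible intron, was lower than theirs (1.70 against 2.71 and 1.75). Among its leading genes were LEF1 (8 elements) and PRKCQ (7), whose promoters were each called in all 6 libraries. Of 17 erythroid and myeloid genes only 9 had eligible intron, 0.373 Mb in all, so the others could hold no element. ANK1 (3) and ITGAM (1) held elements, which is 1.07 per 100 kb, and 1 of these 4 elements was called in all 6 libraries. The 18 long neuronal genes held 248 elements in 17 genes, led by DLG2 (29), CTNNA2 (28) and PTPRD (24), but 0.923 per 100 kb (median 0.941). The share of elements called in all 6 libraries was 37.6% in the B-cell factors, 29.6% in receptor signalling, 41.4% in NF-kB, 38.2% in T-cell genes, 25% in erythroid and myeloid genes and 19.8% in neuronal genes, against 25.9% over all genes. These lists were compared as counts, without a test.

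Elements were denser in first introns than in later introns in every library. Of the elements that could be placed, 3497 lay in first introns (19.7 per Mb of eligible intron) and 9582 in later introns (14.4 per Mb), while 1973 lay in neither or both. Counted per library, first introns held 10.9 ± 1.23 elements per Mb and later introns 7.76 ± 0.913 (SD, n = 6 libraries). The ratio was 1.41-fold, or 0.49 ± 0.02 on the log2 scale (SD), higher in 6 of 6 libraries (exact two-sided sign-flip permutation test, p = 0.03125, the smallest that 6 libraries allow, adjusted p = 0.04375 over 7 tests). Recurrence was near equal, with 26.8% of first-intron and 25.6% of later-intron elements called in all 6.

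The median distance to the nearest protein-coding start was 35.3 kb (quartiles 15.5 and 81.4 kb, maximum 968 kb). Density changed little with distance, from 16.0 elements per Mb at 5 to 10 kb to 15.9 at 50 to 100 kb and 13.1 beyond 200 kb. Within 10 kb of a start, first introns held 21.3 per Mb and later introns 12.7, and beyond 200 kb both held 13.2. The difference between first and later introns narrowed with distance, without a test of the trend. Just inside the 5 kb limit, 471 elements at 5 to 6 kb were called in all 6 libraries in 25.1% of cases, and just outside it, 439 regions at 4 to 5 kb in 23.7%.

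Intronic elements were lower, narrower and less recurrent than promoter regions in the same libraries. The median summit reads of their peaks were 19 and 18 with the old buffer, 18 and 18 with the purified and 19 and 19 with the unpurified new buffer, against 29 and 27, 30 and 28, and 31 and 31 in promoter regions. The difference was -10.8 ± 1.33 reads (SD, n = 6), lower in 6 of 6 libraries, and the median peak width differed by -208.7 ± 20.4 bp. Of the peaks in intronic elements, 48.8% ± 6.26 lay in regions called by all 6 libraries, against 80.6% ± 3.10 in promoter regions, a difference of -31.8 ± 5.07 percentage points. The differences in reads and width each had p = 0.03125 by the exact sign-flip permutation test (adjusted p = 0.04375). No p is given for the share, because all libraries are scored against 1 set of regions and their values are not separate observations.

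Recurrence also differed among peaks of similar height. Among peaks with 20 to 24 summit reads, 60.5% ± 11.4 of those in intronic elements and 74.6% ± 9.13 of those in promoter regions lay in regions called by all libraries. At 15 to 19 reads the values were 32.1% ± 12.4 and 49.9% ± 12.8, and at 40 or more reads 99.4% ± 0.356 and 99.7% ± 0.225. These bins were not tested, and the wider promoter regions offer more bases for an overlap.

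Against intergenic distal regions the same measures were nearly level. The median summit reads were equal in 6 of 6 libraries (difference 0, exact permutation p = 1), and the width differed by -2.67 ± 3.08 bp (lower in 4 of 6 libraries, exact permutation p = 0.125, adjusted p = 0.146). The share of peaks in regions called by all libraries was lower in intronic elements by a small amount in every library, -0.667 ± 0.479 percentage points, again with no p.

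The libraries called 9046 and 8233 intronic elements with the old buffer, 9013 and 6487 with the purified new buffer and 8400 and 7809 with the unpurified new buffer. The groups overlapped in number, and replicate 2 of the purified new buffer, which also had the shortest peak list, was the lowest. Without it the purified minus old difference was 372.5 elements, against -889.5 with it, and neither passed the test. As a share of the autosomal regions a library called, intronic elements made up 25.62% and 25.22%, 25.15% and 23.02%, and 24.58% and 24.10%. Both new-buffer groups thus lay below the old buffer, by -1.34 and -1.08 percentage points. They did not overlap it, but the higher purified value (25.15%) was close to the lower old-buffer value (25.22%). Without replicate 2 of the purified new buffer the first difference was -0.275. With starts of every gene type taken as limits the groups of that difference overlapped (exact permutation p = 0.667). In any case 2 libraries against 2 cannot give a p below 0.333 in an exact permutation test, and the adjusted p of both was 1. Median summit reads of the elements differed between protocols by at most 1 read (adjusted p = 1, exact permutation test). Replicate 2 of the purified new buffer had 60.5% of its intronic peaks in regions called by all 6 libraries, above the 43.6% to 50.3% of the others.

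The mean sharing of elements was near equal within and between protocols, but the test could not have passed the threshold. The shared fraction of the covered length (Jaccard index) averaged 0.487 (0.465 to 0.508) in the 3 pairs of 1 protocol and 0.489 (0.466 to 0.517) in the 12 other pairs (exact one-sided permutation test over 15 pairings, p = 0.6). The smallest p that 15 pairings allow is 0.0667, so a difference between protocols is not excluded. Single elements were called in both libraries of 1 protocol and neither of another at rates near those of all regions. With the old buffer and not the purified new buffer these were 507 elements, 3.76% of those called in any of the 4 libraries, against 3.2% of all regions, and in the other direction 259, 1.92% against 1.83%. With the old buffer and not the unpurified new buffer there were 484 (3.58% against 2.82%), and the reverse held for 339 (2.51% against 2.4%). Between the new-buffer groups, 395 were called in both unpurified and neither purified new-buffer library (3.08% against 2.7%), and 261 in the reverse (2.04% against 1.76%). Most of these elements were also called in the third protocol. At least 1 library of the third protocol called 285 of the 507, 180 of the 259 and 262 of the 484. The same held for 209 of the 339, 265 of the 395 and 182 of the 261.

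**Figure D4:**
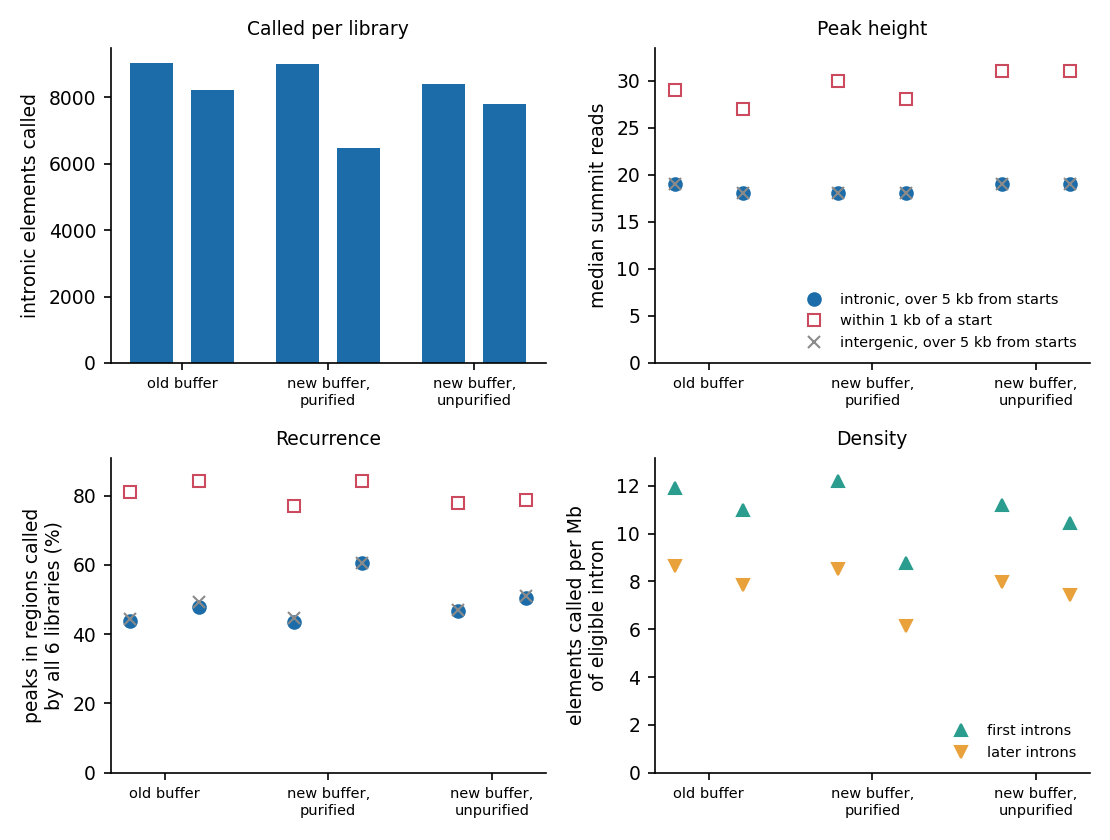
Values per library, 2 libraries for each protocol on the x axis: intronic elements called (top left), median summit reads by class (top right), percent of peaks in regions called by all 6 libraries by class (bottom left), and elements called per Mb of eligible first and later introns (bottom right). Intronic and intergenic symbols lie on each other at 18 or 19 reads, below promoter regions at 27 to 31, and first introns lie above later introns in 6 of 6 libraries.

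The leading protocol-specific elements were ranked by the −log10 q of the weaker library of the protocol that called them. Their median summit reads were 16 to 22 over the libraries that called them. Over all elements the median was 16 and the 75th percentile 20.5, and elements called in all 6 libraries had a median of 25.5. In the element of KLRC4-KLRK1, a readthrough of receptor genes of natural killer cells (chr12:10547950-10548364), the summit reads were 22 and 25 with the old buffer, the purified new buffer had no call, and 1 unpurified library had 15. In the element of SLC25A26, a mitochondrial carrier (chr3:66405836-66406235), both old-buffer libraries had 20 reads and 1 purified library 14, with no call in the unpurified libraries. The element of ZFHX3, a homeodomain factor (chr16:73213559-73213941), was called by both purified libraries at 17 reads and the unpurified libraries at 13 and 15, and by neither old-buffer library.

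In EPB41L2, a membrane skeleton gene (chr6:131350951-131351408), the unpurified libraries had 24 and 28 reads, the purified ones 17 and 12, and the old buffer gave no call. LRRK2, a kinase gene (chr12:40719164-40719541), had 22 and 20 reads without purification, 13 in 1 old-buffer library and no call with the purified new buffer. NEK10, also a kinase gene (chr3:27175609-27176042), had 20 and 18 with the purified new buffer, 23 and 14 with the old buffer and no call without purification. No call means that a list holds no peak there, so these are not measured at 0. Each was chosen as the first of its kind in that ranking.

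The strongest elements of all resembled ribosomal DNA. The assembly has an unplaced contig that carries ribosomal RNA genes in a stretch of 16 kb with 71.7% GC, and 8 elements matched it over at least 100 bp at 88% identity or more, 7 of them called in all 6 libraries. The element of HFM1, a meiotic DNA helicase (chr1:91852640-91853292, intron 4 of 38), matched at 99.7% over 366 bp and had 275 and 252 summit reads with the old buffer, 273 and 270 with the purified and 271 and 273 with the unpurified new buffer. SLCO5A1, an organic anion transporter gene, followed with 172 to 191 reads (95.4% over 372 bp), MYO1D, an unconventional myosin gene, with 141 to 161 (89.0% over 501 bp) and DLG2 with 141 to 158 (88.8% over 321 bp). Elements of ANKRD30BL, PID1, MAN1A1 and TXNL4A matched as well, with medians of 74.5, 44.5, 24.5 and 12 reads. The part of reads from ribosomal DNA copies in these heights was not tested. No element matched the mitochondrial genome over 100 bp at 80% identity.

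Without those 8, the strongest element lay in intron 1 of PDE4B, a cyclic AMP phosphodiesterase of immune cells (chr1:66277540-66278234). It had 94 and 67 reads with the old buffer, 68 and 79 with the purified and 85 and 95 with the unpurified new buffer. Both unpurified libraries lay above both purified libraries, and the old buffer overlapped each. These reads were not adjusted for depth, and the lowest local background was highest in the unpurified libraries. Next by mean −log10 q were elements of CEP128, a centriole gene (71 to 98 reads), ATP8A1, a phospholipid flippase gene (80 to 102), PDCD10, a regulator of blood vessel integrity (68 to 81), and MYO10, a myosin of filopodia (73 to 94). The genes after PDE4B were named after the ribosomal matches had been seen.

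The base composition at the summits was between that of the surrounding introns and that of promoters. The median GC content of the 200 bp at the summit was 43.5% (quartiles 38.5% and 48.5%), against 40% in windows 1 kb to each side, 44% in intergenic distal regions and 68% in promoter regions. Recurrence made little difference, with 43% in elements called by 1 library and 44% in those called by all 6. CpG was depleted, with a median observed to expected ratio of 0.179 against 0.852 in promoter regions.

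Short matches to the cores of B-cell transcription factor motifs were more frequent at the summits than beside them. The letters searched on both strands were TGTGGT for RUNX, TGANTCA for AP-1, GGAAGT for ETS, GAGGAAG for PU.1 (which overlaps ETS), GAAANN followed by GAAA for IRF, GGANTTTCC for NF-kB, CCCNNGGGA for EBF, ATGCAAA for OCT, CAGGTG for E-box, CCANNAG followed by NNGGC for CTCF, GGGCGG for SP/KLF and GCGCN followed by TGCGC for NRF1. RUNX was in 28.9% of the element windows and in 13.5% and 13.3% of the windows to the left and right, AP-1 in 17.8% against 6.25% and 6.34%, and ETS in 17.7% against 10.1% and 10.1%. IRF was in 8.38% against 3.41% and 3.76%, NF-kB in 2.72% against 0.804% and 0.585%, and EBF in 3.45% against 1.63% and 1.68%.

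E-box was level with its surroundings (14.8% against 15.4% and 14.6%), and OCT nearly so (6.84% against 5.81% and 5.32%). Promoter windows had a different make-up, with SP/KLF in 62.0% and NRF1 in 9.12%, where elements had 3.85% and 0.0664%, and with RUNX in 8.19% and AP-1 in 3.65%. Intergenic distal windows were close to the elements for RUNX (26.1%) and AP-1 (17.7%). CTCF was in 4.61% of elements and 6.58% of intergenic windows, against 0.571% on each side.

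Motif content differed with recurrence. RUNX went from 25.3% of elements called in 1 library to 33.3% of those called in all 6, AP-1 from 14.9% to 22.6%, NF-kB from 1.89% to 3.54% and IRF from 7.17% to 9.75%. CTCF had the opposite order, with 5.70% in elements called by 1 library, 7.19% by 2, 3.03% by 5 and 1.69% by all 6. In elements called by all 6 libraries the matches peaked at the summit, with 2.26 RUNX matches per kb within 50 bp and 0.739 at 500 to 1000 bp, a ratio of 3.06. The same ratio was 3.94 for AP-1, 5.06 for NF-kB, 2.79 for IRF, 1.89 for ETS and 0.877 for E-box. For CTCF it was 3.86, for EBF 3.01, for SP/KLF 2.38, for PU.1 1.81 and for OCT 1.42. A peak at the summit was thus not limited to the motifs of B-cell factors. In the windows printed above, PDE4B and LSAMP each had AP-1 at 2 places, ATXN1 had AP-1 and RUNX, PDE4D had ETS, EBF and E-box, and AUTS2 had PU.1 at its edge. The window of KLRC4-KLRK1 had RUNX and a PU.1 match overlapping an ETS match, and that of HFM1 had RUNX. A match of letters is a description and does not show a bound factor.

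**Figure D5:**
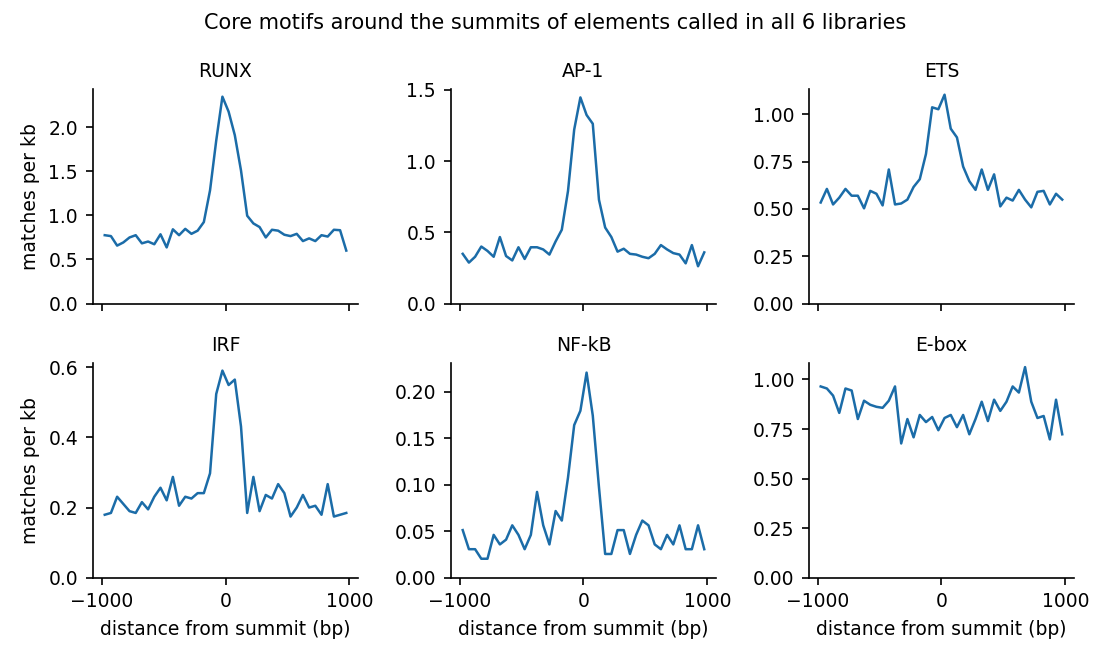
Matches per kb on both strands (y axis) by distance from the summit (x axis, bp, steps of 50 bp) for 6 core motifs in the 3897 elements called in all 6 libraries. RUNX, AP-1, ETS, IRF and NF-kB peak at the summit, with ratios of 1.89 to 5.06 over the sequence 500 to 1000 bp away, and E-box (0.877) does not. CTCF (3.86) and SP/KLF (2.38) also peak there and are not drawn.

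Genes with a promoter region in these lists hosted more elements for their length. Genes whose promoter region was called in all 6 libraries had 10.2 ± 1.14 elements called per Mb of eligible intron (SD, n = 6 libraries), those with a promoter called in 1 to 5 libraries 8.20 ± 1.01 and those with none 5.68 ± 0.711. An element was hosted by 2740 of 7342 genes (37.3%) in the first group and by 1120 of 4659 (24.0%) in the last. The ranges over libraries did not overlap between the first and the last group (8.14 to 11.2 and 4.43 to 6.36). These values were not tested, and both counts come from the same lists. Having none means only that the lists hold no region there, as for FOXP1, and regions may have been filtered out, so it does not show a closed promoter. LSAMP, with 37 elements, had no promoter region in any library.

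The spacing of elements was described without a reference class, so it does not show clustering. The median gap to the nearest other element was 14.4 kb, and 42.3% of elements had another within 10 kb. Of the elements with another within 10 kb, 29.6% were called in all 6 libraries, against 23.2% of the others. With a limit of 1 kb the shares were 25.5% and 25.9%, so the difference depended on the distance chosen. Genes that are not protein-coding overlapped 1163 elements (7.73%), and 588 (3.91%) lay within 1 kb of a start of any transcript.

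By chromosome the density ranged from 19.6 elements per Mb of eligible intron on chromosome 4 and 19.1 on chromosome 6 to 6.72 on chromosome 17, 5.68 on chromosome 19 and 3.94 on chromosome 22. The share called in all 6 libraries was 28.1% on chromosome 4 and 10% on chromosome 22, where 50 elements were found. Density was lower where the eligible introns had more GC (Spearman -0.910, Pearson -0.898 over 22 chromosomes, a description, since the chromosomes share libraries and annotation). GC of the eligible introns ranged from 38.4% to 47.8% between chromosomes.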

How the data were processed

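Lists of ATAC-seq peaks were used, 1 for each library. Per the methods and the labels, the authors trimmed reads and mapped them to hg19 with Bowtie2 2.1.0. Reads of low quality, duplicates (Picard 1.79) and mitochondrial reads were removed. Narrow peaks came from MACS2 at q 0.01, whose version is not given in the sources used here. They state filters for blacklisted regions and for mitochondrial sequence in the nuclear genome. The deposited columns give for each peak a score, a fold enrichment (a ratio of summit over local background), and the −log10 of the p and q values. The study merged reads per condition and compared read counts with DESeq2, which these lists do not allow, since they hold no counts.

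Summit reads were solved from the fold enrichment and p value (within 0.001 in −log10 p for 100% of peaks). Precision rests on these reads, a median of 20 to 22 per library, and total depth is unknown. Overlapping or adjoining peaks were merged and classed with GENCODE version 44 (lifted to GRCh37), using 75494 protein-coding starts. Autosomes only were classed. Protocols were compared by exact two-sided permutation tests, with each library as 1 value, and classes within libraries by exact sign-flip tests, with Benjamini-Hochberg adjustment over 9 and 7 tests. Of the 7, those on the share of peaks in regions called by all libraries are not reported, since the libraries share that set of regions. Motifs were searched by letters, and similarity by blastn 2.17.0.

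Named genes were the 20 hosts with the most elements, the 5 densest with at least 10, the strongest element of the 10 leading hosts, the 5 strongest elements, the strongest protocol-specific ones, and the 3 leading genes of each list, of which 1 is not reported here. The elements, lists and rules were chosen with earlier results of these data known. The scripts were tested on simulated data, and overlaps were compared with those of bedtools 2.31.1. Software was SciPy 1.17.1, NumPy 2.4.6, pandas 2.3.3, samtools 1.23.1 and matplotlib 3.10.9 under Python 3.11.15. Alternatives were a −log10 q of at least 5, 30136 peaks per library, distances of 2 and 10 kb, starts of every gene type, a merging gap of 150 bp, at least 50% of a region covered, each library left out and a replicate block.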

Additional observations from a re-analysis of the deposited data

How the results depend on the processing

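AUTS2 kept the first place under each alternative run for the ranking of hosts (all but 50% coverage and the replicate block), with 32 to 44 elements. The share of elements called in all libraries was 25.9% and was 27.1% with 30136 peaks per library, 17.8% where 50% of a region had to be covered, and 28.3% to 30.0% with 1 library left out. The share called in 1 library was 32.6% and was 30.9% at a −log10 q of at least 5, 30.6% with equal peak numbers, 31.9% with a gap of 150 bp, 34.6% where 50% had to be covered, and 33.5% to 34.2% with 1 library left out.

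Differences from promoter regions and between introns kept their direction under the alternatives run for them, which were a −log10 q of at least 5, equal peak numbers, distances of 2 and 10 kb, starts of every gene type, each library left out and, for the share of peaks in regions called by all libraries only, a gap of 150 bp. With 1 library left out they ranged from -11.4 to -10.6 reads, from -215.2 to -204.8 bp, from -30.8 to -29.7 percentage points and from 0.49 to 0.50 on the log2 scale, and the difference from intergenic regions in the share of peaks in regions called by all libraries from -0.603 to -0.504 percentage points. None of these passed the threshold there, because the smallest p with 5 libraries in an exact permutation test is 0.0625. The width difference from intergenic regions passed at a −log10 q of at least 5 (-3.83 bp, exact permutation p = 0.03125, adjusted p = 0.0365).

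Protocol differences not past the threshold changed sign in places. Without replicate 2 of the purified new buffer, the remaining purified library called 372.5 more elements than the old-buffer mean, and the unpurified minus purified differences were -911.5 elements and -0.813 percentage points. With 1 library left out these 3 ranged from -2166 to 372.5, -911.5 to 1632 and -0.813 to 1.33. The purified minus old difference in share ranged from -2.42 to -0.275. The unpurified minus purified share difference was -0.00857 with equal peak numbers. The Jaccard difference was 0.00293 with equal peak numbers (exact one-sided permutation p = 0.2). With 1 library left out it ranged from -0.0113 to 0.0154, the highest without replicate 1 of the purified new buffer. The cause was not tested.

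Libraries with the same replicate number share only the number (correlations of their deviations -0.00407, -0.00262 and 0.0146 over 20064 regions). With the replicate block the purified minus old difference was the same (-889.5 elements, exact sign-flip permutation p = 0.5), and no call changed. Leaving out the 8 elements similar to ribosomal DNA was chosen after seeing the data. It was run for the number of elements, the numbers called between protocols and the class differences in summit reads, and changed no call there.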
